A study of Homo sapiens with 6 samples.

Results

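The genes described here are *NUDT1*, which encodes MTH1, the named target of the drug TH588, and 7 other genes whose enzymes clear damaged, misplaced or excess nucleotides: *NUDT5*, *NUDT16*, *NUDT18*, *ITPA*, *DCTPP1*, *DUT* and *SAMHD1*. They were chosen by symbol for the function of their enzymes, by a rule that uses no measured value but was written with earlier results of these data known. All 8 were found by Ensembl identifier among the 58336 genes counted, and all 8 passed the filter on low counts.

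Free nucleotides are oxidised, deaminated or mismade in every cell, and a polymerase can build the faulty ones into DNA or RNA. Sanitation enzymes hydrolyse such nucleotides, usually by cutting a triphosphate or diphosphate to a form that polymerases cannot use. MTH1 removes 8-oxo-dGTP, an oxidised form of dGTP that pairs with adenine as well as cytosine, while DUT removes dUTP so that uracil is not built in as thymine.

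A2780 is a human ovarian cancer cell line. Its cells were treated with 0.1% DMSO, the solvent, or with 6 µM TH588, a first-generation MTH1 inhibitor, for 48 h before RNA was collected. Polyadenylated RNA was sequenced in 3 independent experiments per treatment (A, B and C), 6 libraries in all, so that the only labelled difference between the groups was the drug. All results come from this 1 cell line, 1 dose and 1 time point.

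Total counts were between 83144642 and 98176722 in the DMSO libraries, and between 28537837 and 99074175 in the TH588 libraries. The shallowest library was TH588 replicate A, in which 21.94% of counts fell on *SNORD3A*, a small nucleolar RNA that held 7.68% to 12.95% of the others. Of 10 markers of ovarian tumour cells, 7 (*PAX8*, *KRT7*, *KRT8*, *KRT19*, *CDH1*, *MUC16* and *WT1*) were under 1 CPM (a gene's counts with the library scaled to 1000000) in every library. The other 3 were *KRT18* (3.14 to 7.0 CPM), *EPCAM* (0.497 to 0.886 CPM in DMSO and 4.33 to 4.96 CPM in TH588) and the mesenchymal gene *VIM* (3330 to 4050 CPM). The markers together summed to between 3340 and 3750 CPM in DMSO and between 3340 and 4060 CPM in TH588, nearly all of it *VIM*. Markers of blood and endothelial cells were near 0 (*CD3E* was at 0 in every library and *PTPRC* reached 0.107 CPM), while the fibroblast collagen gene *COL3A1* was at 1570 to 1900 CPM in DMSO and 1860 to 2600 CPM in TH588. The other fibroblast markers were far lower, *COL1A1* at 2.58 to 4.94 CPM and *DCN* at 6.09 to 7.01 CPM over all libraries. The 9 markers of other cell types summed to 1580 to 1910 CPM in DMSO and 1870 to 2610 CPM in TH588, 5 of the 9 were under 1 CPM in every library, and the part of these markers in the results was not tested.

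Levels below are CPM scaled by the trimmed mean of M values (TMM), which corrects for library composition, and a fold change is TH588 over DMSO on the log2 scale. Across 15844 genes tested with edgeR's quasi-likelihood test, 7852 (49.6%) passed an adjusted p of 0.05, 3839 (24.2%) of them higher and 4013 (25.3%) lower. Among the 8 sanitation genes, 5 were lower after TH588 (*NUDT1*, *NUDT5*, *DCTPP1*, *DUT* and *SAMHD1*, 62.5%), none was higher, and 3 (*NUDT16*, *NUDT18* and *ITPA*) did not pass. When library size alone was used for scaling, 17.6% of genes tested were lower, and 60.4% of all calls were higher against 48.9% with TMM. The same 5 sanitation genes were still lower on that scale, and *NUDT18* was called higher. The median log2 fold change of the 8 genes was -0.43, beside 0.02 over all genes tested. The DMSO and TH588 libraries did not overlap for 6 of the 8, all of them lower, while this held for 57.7% of all genes tested in either direction. For 1 gene alone, the smallest two-sided p that an exact permutation of 3 and 3 libraries can give is 0.1, so the calls rest on the fit across all genes. In RNA from whole cultures, fewer cells that express a gene and less RNA in each cell cannot be told apart.

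**Figure D1:**
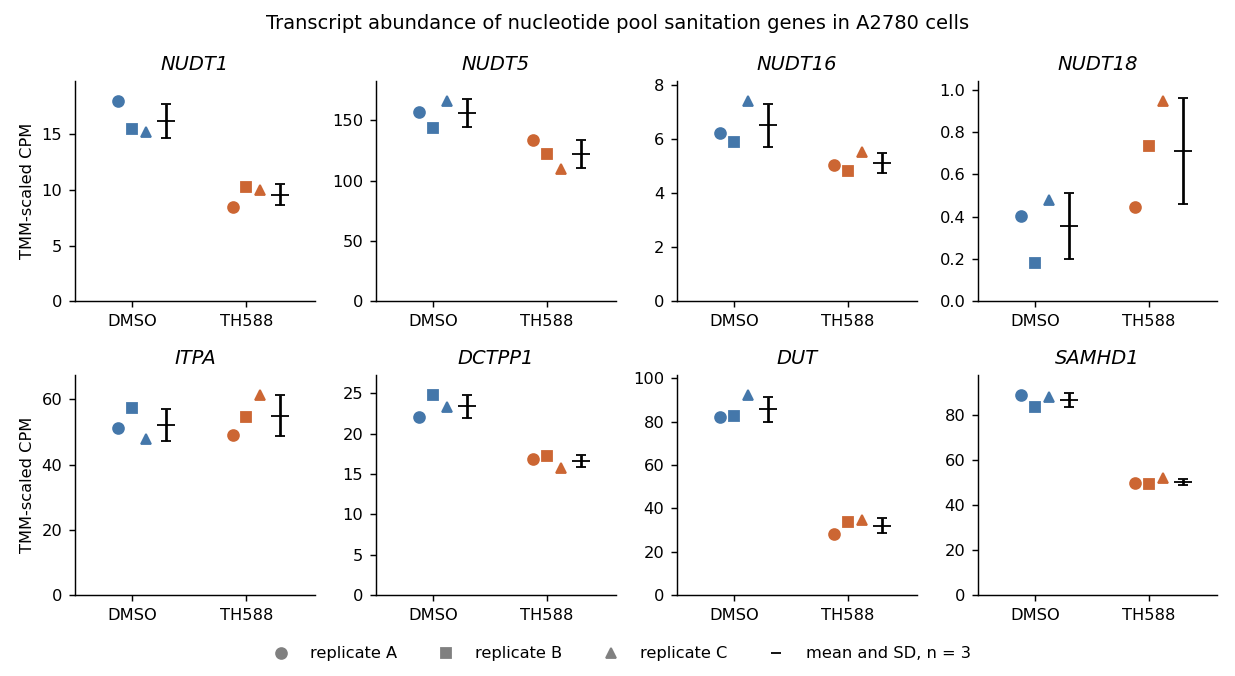
TMM-scaled CPM of each gene (vertical axes from 0, one scale per panel) in the DMSO and TH588 libraries, with circles, squares and triangles for replicates A, B and C and black bars for the mean and SD (n = 3). The groups stand apart for 6 genes, most widely for *DUT* (82.0 to 92.4 CPM in DMSO, 28.2 to 34.6 CPM in TH588), and overlap for *ITPA* and *NUDT18*.

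*NUDT1* (ENSG00000106268) lies on the plus strand of chromosome 7, from 2242222 to 2251146 in GRCh38. In the order of replicates A, B and C, here and throughout, it was at 18, 15.5 and 15.2 CPM with DMSO and at 8.52, 10.3 and 9.98 CPM with TH588. Every TH588 library was thus below every DMSO library. From a mean of 16.2 ± 1.55 CPM it fell to 9.60 ± 0.945 CPM (± SD over 3 libraries, as for all means given), with a log2 fold change of -0.75 (SE 0.12, adjusted p = 0.000232 by edgeR's quasi-likelihood test). The drug-treated cells held 59.6% of the DMSO level of the transcript of the drug's own target, with a 95% interval of 49.8% to 71.3%. The counts behind these values were 1276 to 1478 in DMSO and 228 to 1119 in TH588, the lowest of them in the shallow TH588 replicate A. Without that library the log2 fold change was -0.67 (adjusted p = 0.000671 by edgeR).

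The start of *NUDT1* is 23 bases from that of *MRM2*, a gene on the opposite strand for a mitochondrial ribosomal RNA methyltransferase. The interval between the ends of both gene models is shown in full because the neighbours moved together. It spans chr7:2242199-2242221 in GRCh38, is intergenic in the count table, and reads on the plus strand as follows, taken from the RefSeq start windows of GRCh38.p14.
NUDT1 to MRM2 interval: cggaagtgcctggcctcacttcc
*MRM2* was at 39.9, 39.9 and 39.6 CPM in DMSO and at 20.6, 25.5 and 20.9 CPM in TH588, with no overlap. It fell by 0.83 on the log2 scale (SE 0.10, adjusted p = 2.13e-05 by edgeR's quasi-likelihood test), and the genes share no exon base. *SNX8*, which lies 623 bases beyond the other end of *NUDT1*, had overlapping groups and a log2 fold change of 0.28 (adjusted p = 0.127 by edgeR). Whether *NUDT1* and *MRM2* are linked in their change was not tested.

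*NUDT5* and *NUDT18* encode Nudix enzymes that, like MTH1, act on oxidised guanine nucleotides, chiefly as diphosphates, and NUDT5 also splits ADP-ribose. *NUDT5* (ENSG00000165609, minus strand of chromosome 10, 12165325 to 12196144) was at 157, 144 and 166 CPM in DMSO and at 134, 122 and 110 CPM in TH588. The lowest DMSO library was above the highest TH588 library by a small margin. Its mean fell from 156 ± 11.5 to 122 ± 11.8 CPM, a log2 fold change of -0.35 (SE 0.09, adjusted p = 0.00679 by edgeR's quasi-likelihood test), which left 78.2% of the DMSO level (95% interval 68.0% to 89.9%). This call was lost without DMSO replicate C, where the log2 fold change was -0.29 (adjusted p = 0.0561 by edgeR). The gene shares 567 exon bases, 11.4% of its exon length, with *SEC61A2* and *CDC123* on the other strand, and the library kit did not keep the strand. Neither neighbour passed the test, with log2 fold changes of -0.15 for *CDC123* (adjusted p = 0.213 by edgeR) and within 0.01 of 0 for *SEC61A2* (adjusted p = 0.974 by edgeR).

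*NUDT18* (ENSG00000275074, minus strand of chromosome 8, 22106872 to 22109419) was the least abundant of the 8 and the only one whose estimate lay well above 0. It was at 0.402, 0.182 and 0.480 CPM in DMSO and at 0.448, 0.735 and 0.947 CPM in TH588, and the groups overlapped because TH588 replicate A lay between DMSO replicates A and C. The raw counts were 33, 15 and 45 in DMSO and 12, 80 and 79 in TH588. Its log2 fold change of 1.04 (SE 0.41, 95% interval 0.15 to 1.93) did not pass the test (adjusted p = 0.0506 by edgeR's quasi-likelihood test). The value stood so near the threshold that it passed under 7 of 15 alternatives, with adjusted p-values between 0.0191 and 0.221. The gene was detected in all 6 libraries, each with 12 counts or more.

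*NUDT16* and *ITPA* encode the enzymes that clear inosine nucleotides, which arise when adenine loses its amino group. NUDT16 acts on the diphosphates and also removes caps from some small RNAs, and ITPA acts on the triphosphates. *NUDT16* (ENSG00000198585, plus strand of chromosome 3, 131381671 to 131388830) was at 6.22, 5.91 and 7.41 CPM in DMSO and at 5.04, 4.81 and 5.54 CPM in TH588. The groups did not overlap, but the log2 fold change of -0.34 (SE 0.13, 95% interval -0.64 to -0.05) fell just short of the threshold (adjusted p = 0.0501 by edgeR's quasi-likelihood test). It passed under 2 of 15 alternatives, limma-voom (adjusted p = 0.0484) and the fit without DMSO replicate B (adjusted p = 0.0445 by edgeR).

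*ITPA* (ENSG00000125877, plus strand of chromosome 20, 3208868 to 3223870) was the gene with the smallest difference. It was at 51.2, 57.5 and 47.8 CPM in DMSO and at 49.1, 54.5 and 61.4 CPM in TH588, with groups that overlapped over most of their range. The means were 52.1 ± 4.90 and 55.0 ± 6.21 CPM, and the log2 fold change was 0.08 (SE 0.10, adjusted p = 0.544 by edgeR's quasi-likelihood test). The 95% interval ran from 90.7% to 123% of the DMSO level, and a p that misses the threshold does not show that the levels were the same. *ITPA* passed the test under none of the 15 alternatives.

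DCTPP1 and DUT are pyrophosphatases of deoxypyrimidine nucleotides: DCTPP1 hydrolyses dCTP and its modified forms, and DUT turns dUTP into dUMP, the substrate of thymidylate synthase. *DCTPP1* (ENSG00000179958, minus strand of chromosome 16, 30423619 to 30430075) was at 22, 24.8 and 23.3 CPM in DMSO and at 16.8, 17.2 and 15.7 CPM in TH588, with no overlap. Its mean fell from 23.4 ± 1.41 to 16.6 ± 0.763 CPM, a log2 fold change of -0.50 (SE 0.10, adjusted p = 0.000937 by edgeR's quasi-likelihood test). As much as 42.1% of its exon length, 666 bases, is shared with *ZNF771*, a zinc finger gene on the other strand. *ZNF771* was also lower, at 3.23 ± 0.161 CPM in DMSO and 2.23 ± 0.238 CPM in TH588 (log2 fold change -0.55, SE 0.16, adjusted p = 0.0129 by edgeR). Reads in the shared bases cannot be told apart by strand, so the separate changes of these genes are uncertain.

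*DUT* (ENSG00000128951, plus strand of chromosome 15, 48331011 to 48343373) fell furthest of the 8 in these libraries. It was at 82.0, 82.6 and 92.4 CPM in DMSO and at 28.2, 33.6 and 34.6 CPM in TH588. The lowest DMSO library was more than double the highest TH588 library. The mean was 85.7 ± 5.80 CPM in DMSO and 32.1 ± 3.45 CPM in TH588, a log2 fold change of -1.41 (SE 0.10, adjusted p = 3.4e-07 by edgeR's quasi-likelihood test), or a 2.66-fold lower level. Its 95% interval, 32.6% to 43.5% of the DMSO level, did not reach that of *SAMHD1*, the next in order, at 51.9% to 65.1%. The antisense gene *DUT-AS1* shares 533 exon bases with *DUT* (14.5% of its exon length) but had at most 6 counts in any library. Of 8 *DUT* pseudogenes in the table, 1 had any counts, with at most 7 in a library.

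The E2F factors switch on many genes at the start of S phase, so the start sites of the 8 genes were searched for the E2F motif, spelled TTTGGCGC or TTTCGCGC, on both strands. The windows were the RefSeq ones of GRCh38.p14, which run from 250 bases before a start to 50 bases after it. The table held 12 windows for 7 of the genes and none for *NUDT18*. The motif was in 1 of the 12, which is 1 of 4 windows of *DUT* and the farthest of them from the start of its gene model, and in 403 of all 35116 windows (1.15%). The 30 bases around it are printed here, with the motif in capitals, because *DUT* was the only member with a match. They lie at chr15:48332159-48332188, and the motif runs from 27 to 20 bases before that RefSeq start, within the untranslated part of an exon of 1 GENCODE transcript and in an intron of others.
DUT start, plus strand: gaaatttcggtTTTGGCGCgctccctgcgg
Among 11126 tested genes with a window, 270 (2.43%) held the motif, and 131 of these 270 were lower after TH588 (48.5%), beside 28.5% of all genes with a window. Their median log2 fold change was -0.30, beside -0.01. A match is a description of letters and not a bound site, and the motif was chosen with earlier results of these data known.

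*SAMHD1* (ENSG00000101347, minus strand of chromosome 20, 36889773 to 36951901) encodes a dNTP triphosphohydrolase, which takes the whole triphosphate from any of the standard dNTPs and so keeps the pool small outside S phase. Its level was 88.8, 83.2 and 87.7 CPM in DMSO and 49.8, 49.3 and 51.8 CPM in TH588. The libraries of each group lay closer together than for any of the other 7 genes, with a coefficient of variation of 3.46% in DMSO and 2.63% in TH588. The mean fell from 86.6 ± 2.99 to 50.3 ± 1.32 CPM, a log2 fold change of -0.78 (SE 0.07, adjusted p = 4.19e-06 by edgeR's quasi-likelihood test), which left 58.1% of the DMSO level. Its last exons share 1159 bases (10.3%) with *TLDC2* on the other strand, which had at most 13 counts in a library.

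**Figure D2:**
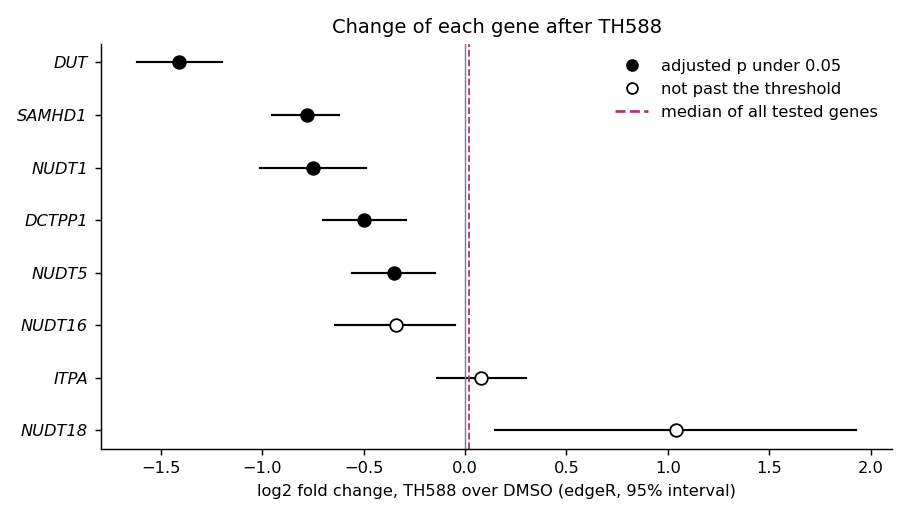
Log2 fold change (TH588 over DMSO) of each gene from edgeR with its 95% interval, filled where the adjusted p was under 0.05. The dashed line is the median of all genes tested, 0.02. The 5 filled points lie between -1.41 (*DUT*) and -0.35 (*NUDT5*).

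Ordered by fold change among all genes tested, the 8 spanned most of the range. Only 1.77% of genes tested had a lower log2 fold change than *DUT*, while the share was 9.42% for *SAMHD1*, 10.4% for *NUDT1*, 19.2% for *DCTPP1*, 26.3% for *NUDT5*, 26.7% for *NUDT16*, 54.3% for *ITPA* and 89.1% for *NUDT18*. For the genes whose enzymes act on inosine nucleotides, the log2 fold changes were -0.34 (*NUDT16*) and 0.08 (*ITPA*). For those whose enzymes act on oxidised guanine nucleotides, they were -0.75 (*NUDT1*), -0.35 (*NUDT5*) and 1.04 (*NUDT18*). The differences between members were not themselves tested.

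The pattern over the 6 libraries was compared between genes as the Euclidean distance of their centred log2 CPM, a description that mostly follows the size of the change because the libraries fall into treated and untreated ones. Within the 8, *NUDT1* and *SAMHD1* were closest, 0.26 apart, and *DUT* and *NUDT18* were farthest, 3.13 apart. The search covered the 9762 genes whose log2 CPM averaged 2 or more, and the nearest to *NUDT1* were *GPATCH11* (distance 0.07), *SNRNP25* (0.08) and *DNAAF5* (0.10), with log2 fold changes of -0.71, -0.76 and -0.77. Those nearest to *DUT* were *ANLN*, which encodes the cytokinesis protein anillin, *DBF4*, the activator of the replication kinase CDC7, and the mitotic kinase gene *PBK*, at distances of 0.11, 0.11 and 0.12 and log2 fold changes of -1.38, -1.40 and -1.38. For *SAMHD1* they were *PAK1IP1*, *ZNF445* and *EXOSC2* (0.07 to 0.10). The nearest genes of *DCTPP1* were *MCU*, *ZNF800* and *ZFYVE21* (0.07 to 0.09), those of *NUDT5* were *SNX3*, *ARF1* and *PPIL1* (0.09 to 0.10), those of *NUDT16* were *PLOD2*, *CCDC121* and *CREB1* (0.09 to 0.15), and those of *ITPA* were *KRCC1*, *GSPT2* and *TCP11L1* (0.08 to 0.09). No gene came as near to *NUDT18*, whose closest were *FGFBP3*, *SH3BGR* and *LHPP* at 0.81 to 0.90. Its own log2 CPM averaged -0.81, and the search held no gene that low. The larger distance therefore cannot be read as a pattern of its own.

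Levels of different genes were compared per length, as TPM (counts divided by the exon length in the table and scaled to the same total in every library). In DMSO, *NUDT5* was at 75.4 ± 11.4 TPM, *ITPA* at 60.2 ± 6.38 TPM, *DUT* at 55.9 ± 5.99 TPM and *DCTPP1* at 35.3 ± 1.87 TPM. *NUDT1* (18.7 ± 3.86 TPM) and *SAMHD1* (18.5 ± 2.58 TPM) came next, ahead of *NUDT16* (2.22 ± 0.339 TPM) and *NUDT18* (0.493 ± 0.232 TPM). The transcript of the drug's target was thus the fifth in order, and its level did not differ from that of *SAMHD1* beyond the spread of the libraries. The neighbours *NUDT5* and *ITPA*, and *ITPA* and *DUT*, also overlapped. In TH588, *ITPA* (59.2 ± 17.4 TPM) and *NUDT5* (53.6 ± 10.3 TPM) led, and *DCTPP1* (23.1 ± 5.60 TPM) now stood before *DUT* (19.6 ± 6.10 TPM). They were followed by *NUDT1* (10.3 ± 3.22 TPM), *SAMHD1* (9.86 ± 2.25 TPM), *NUDT16* (1.61 ± 0.366 TPM) and *NUDT18* (0.928 ± 0.444 TPM). By TPM within TH588, only *NUDT5* and *DCTPP1*, and *SAMHD1* and *NUDT16*, were neighbours whose libraries did not overlap. *DCTPP1* shares 42.1% of its exon length with a gene on the other strand, and *DUT* shares 14.5%. How reads in shared bases were counted is not given, so the places of *DCTPP1* and *DUT* in these orders are uncertain.

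*SNORD3A* took 29.9% to 34.5% of all TPM in DMSO and 38.6% to 55.3% in TH588, so TPM values were not compared between the treatments. As TMM-scaled CPM per kilobase of exon, a scale that can be, *DUT* went from 23.3 to 8.74, *DCTPP1* from 14.8 to 10.5 and *NUDT1* from 7.74 to 4.58. The order within each treatment was the same as by TPM. By CPM per kilobase, *DCTPP1* stood apart from *DUT*, *DUT* from *NUDT1* and *NUDT16* from *NUDT18* in TH588, and *NUDT5* from *ITPA* in DMSO. The other neighbours that overlapped by TPM still overlapped. With the coding length of 1 transcript per gene in place of the exon length, which is between 468 and 1878 bases for these genes, *NUDT5* led in both treatments, and *DUT* (140 TPM) moved ahead of *ITPA* (111 TPM) in DMSO. Only genes with a coding length entered the total for these values, which left *SNORD3A* out. Their size is therefore not comparable with TPM by exon length. In TH588 that length put *DUT* (61.8 TPM) before *DCTPP1* (47.1 TPM) in all 3 libraries, the reverse of the order by exon length. *NUDT1* then came below *SAMHD1* in both treatments, at 42.8 TPM in DMSO and 29.8 TPM in TH588.

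**Figure D3:**
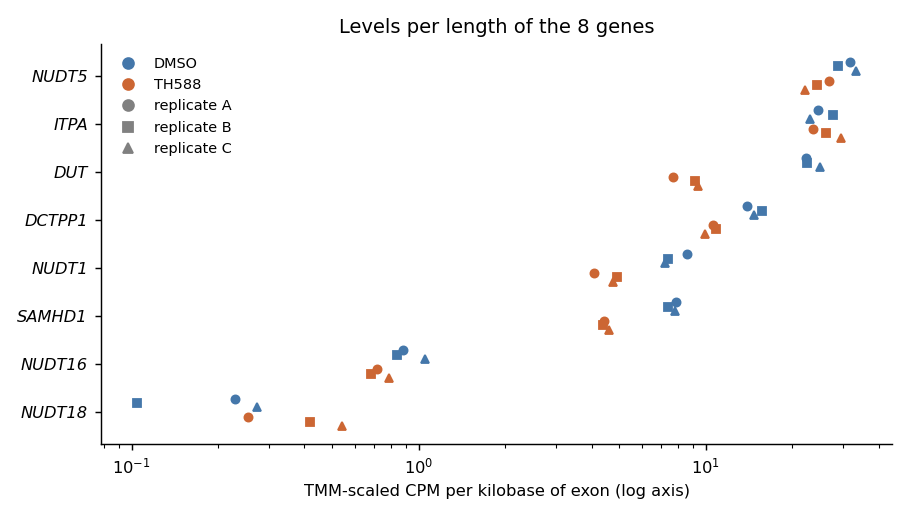
TMM-scaled CPM per kilobase of exon (log axis) of the 8 genes, with 1 point per library, DMSO in blue and TH588 in orange, and circles, squares and triangles for replicates A, B and C. *NUDT5*, *ITPA* and *DUT* lie between 22.3 and 33.5 in DMSO, and *DUT* lies between 7.67 and 9.41 in TH588.

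Around these enzymes, 4 lists of related genes were read from the same fit, beside a list of S phase genes, all written with earlier results of these data known. Of the 19 other Nudix genes, 4 were higher and 3 lower (36.8% called, beside 49.6% of all genes tested), with a median log2 fold change of 0.01 beside -0.75 for *NUDT1*. Among those that fell were *NUDT21*, a subunit of the pre-mRNA cleavage factor (log2 fold change -0.49, adjusted p = 0.000174 by edgeR's quasi-likelihood test), and *NUDT19*, a coenzyme A hydrolase of peroxisomes (-0.31). Those that rose were *NUDT7*, another coenzyme A hydrolase (1.79, from 0.263 to 0.922 CPM), *NUDT14*, a UDP-glucose pyrophosphatase (1.06), *NUDT17* (0.93) and *NUDT2*, which splits diadenosine tetraphosphate (0.35, adjusted p = 0.0486 by edgeR).

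Of the 20 listed enzymes that dephosphorylate, deaminate or otherwise clear nucleotides and nucleosides, 18 were tested. Of these, 4 were higher and 4 lower (44.4% called, beside 49.6% of all genes tested), and the median was -0.07. *NT5C3A*, a pyrimidine nucleotidase, was lower at 38.2 ± 1.45 CPM against 69.6 ± 2.21 CPM in DMSO (log2 fold change -0.87), as were *HDDC2* (-0.74), *HINT1* (-0.58) and the purine nucleotidase *NT5C2* (-0.23). Higher were *NT5E*, the surface nucleotidase CD73 (1.28), *FHIT*, a diadenosine polyphosphate hydrolase (1.18), *ADA*, adenosine deaminase (0.26), and *ENTPD4* (0.25). *NT5E* and *FHIT* were both near 1 CPM in TH588. The 8 calls in this list were 5 without DMSO replicate C.

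**Figure D4:**
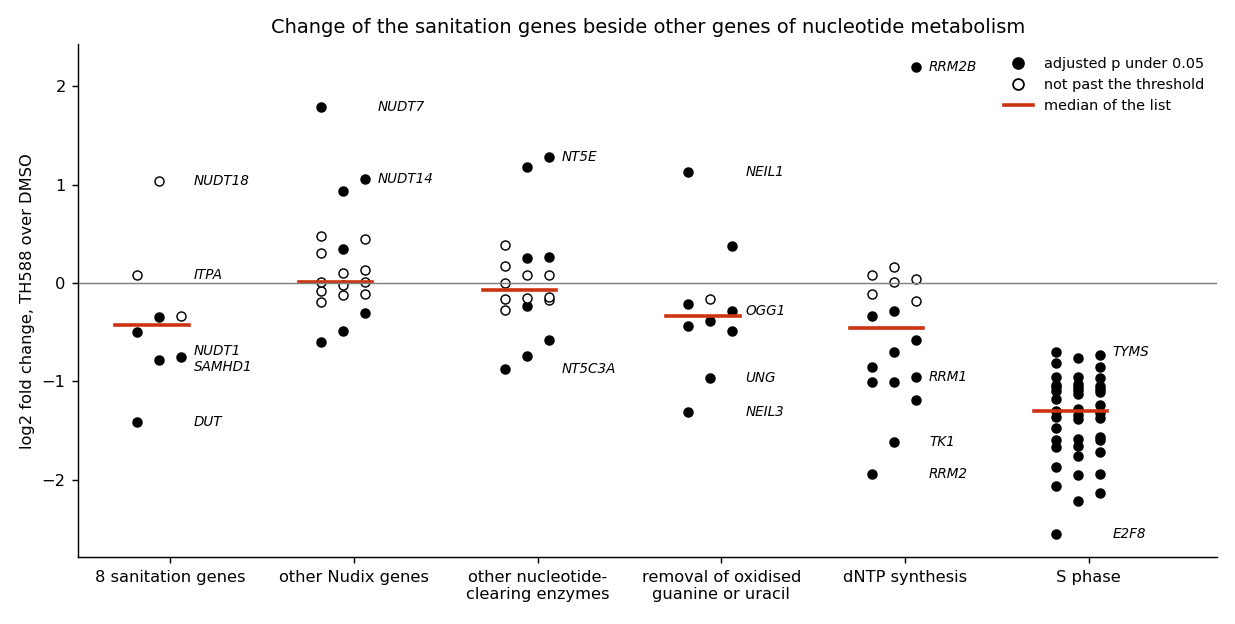
Log2 fold change (TH588 over DMSO) of every tested gene in each list, filled where the adjusted p was under 0.05, with the median of the list as a red bar. The medians are -0.43 for the 8 sanitation genes, 0.01 for other Nudix genes, -0.07 for other clearing enzymes, -0.34 for removal of oxidised guanine or uracil, -0.46 for dNTP synthesis and -1.30 for S phase genes.

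The enzymes that make dNTPs stand on the other side of the pool. Of 18 such genes, 11 were lower (61.1%, beside 25.3% of all genes tested), 1 was higher and 6 did not pass, with a median of -0.46, and 3 of the 18 are also in the S phase list. Ribonucleotide reductase, which makes deoxyribonucleotides, split by subunit. *RRM1*, the large subunit, was at 217, 239 and 253 CPM in DMSO and 121, 117 and 130 CPM in TH588 (log2 fold change -0.95, SE 0.08, adjusted p = 2.43e-06 by edgeR). *RRM2*, the small subunit used in S phase, was at 35.3, 33.6 and 36.3 CPM in DMSO and 6.54, 10.3 and 10.2 CPM in TH588 (-1.94, SE 0.15, adjusted p = 6.36e-07 by edgeR). *RRM2B*, the p53-induced form of the small subunit, was at 23.5, 26.5 and 25.6 CPM in DMSO and 106, 115 and 124 CPM in TH588 (2.19, SE 0.09, adjusted p = 1.4e-08 by edgeR's quasi-likelihood test), the only gene of the list that rose. Large falls in this list were also those of the thymidine kinase gene *TK1* (-1.62) and the thymidylate kinase gene *DTYMK* (-1.19), both of which serve the thymidylate branch that DUT feeds.

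Once a damaged or wrong base is in DNA, glycosylases take it out. Of 10 genes for the removal of oxidised guanine or uracil, 7 were lower (70.0%, beside the same 25.3%), 2 were higher and 1 did not pass, with a median of -0.34. The 9 calls in this list were 6 when library size alone was used for scaling, and 6 at an adjusted p under 0.01. They numbered 6 to 9 with 1 library left out, the lowest without DMSO replicate C or TH588 replicate C. *UNG*, the main uracil glycosylase, acts on the base that DUT keeps out, and is the only gene of this list that is also in the S phase list. It was at 64.1, 75.3 and 66.3 CPM in DMSO and 33.6, 34.8 and 37.4 CPM in TH588, a log2 fold change of -0.96 (SE 0.09, adjusted p = 3.18e-06 by edgeR's quasi-likelihood test). *OGG1*, which removes 8-oxoguanine paired with cytosine, went from 37.2 ± 0.663 to 30.7 ± 1.56 CPM (-0.28, adjusted p = 0.0117 by edgeR). *MUTYH*, which removes adenine paired with 8-oxoguanine, went from 36.0 ± 2.22 to 26.5 ± 1.88 CPM (-0.44, adjusted p = 0.00139 by edgeR). *NEIL3* (-1.31) and *NEIL2* (-0.49) were lower too, while *NEIL1* (1.13) and *SMUG1*, a second uracil glycosylase (0.38, adjusted p = 0.042 by edgeR), were higher.

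All 43 genes of the S phase list were lower, between -2.55 (*E2F8*) and -0.70, with a median of -1.30, and *CLSPN* (-2.21), *EXO1* (-2.13) and *CCNE2* (-2.06) followed *E2F8*. This list holds none of the 8 sanitation genes. *DUT* fell within its range, with 16 of the 43 genes lower and 27 higher in log2 fold change. *SAMHD1* and *NUDT1* lay at its upper edge, with 40 and 41 of the 43 genes below them, and the other 5 members lay above all 43. Of the 32 S phase genes with a start window, 12 held the E2F motif that was in 1 window of *DUT*. The part of the lower S phase transcripts in the change of the sanitation genes was not tested.

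**Figure D5:**
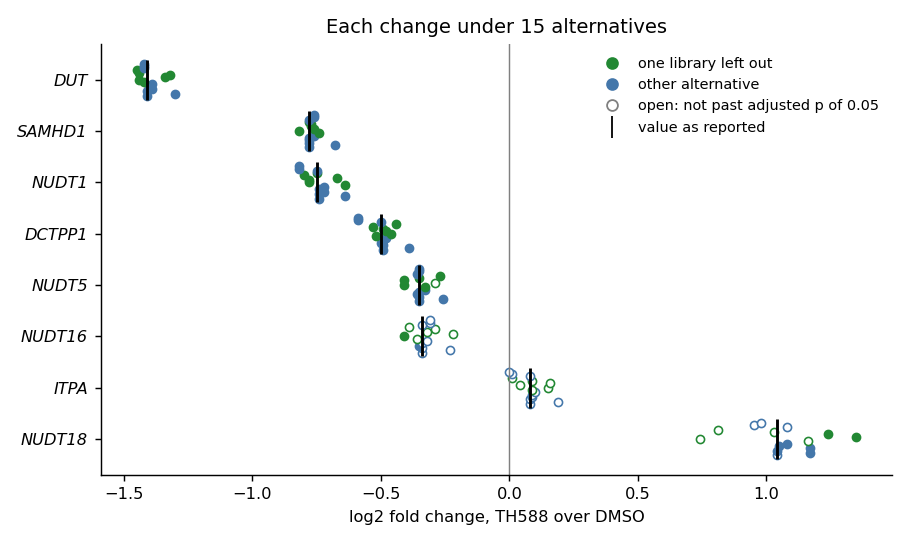
Log2 fold change (TH588 over DMSO) of each gene as reported (black bar) and under 15 alternatives, with green points for fits that left out 1 library, blue points for the others, and open points where the adjusted p was 0.05 or more. *DUT*, *SAMHD1*, *NUDT1* and *DCTPP1* are filled throughout, and *ITPA* lies between 0.00 and 0.19.

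Across the 15 alternatives, in scaling, test, filter, replicate block, gene length trend and each library left out, *NUDT1* kept a log2 fold change between -0.82 and -0.64 and was called in all 15. The same held for *DCTPP1* (-0.59 to -0.39), *DUT* (-1.45 to -1.30) and *SAMHD1* (-0.82 to -0.68). *NUDT5* was called in 14 of 15. Without the shallow TH588 replicate A, 6 of the 8 genes were called, *NUDT18* being the added one at a log2 fold change of 1.24 (adjusted p = 0.0298 by edgeR's quasi-likelihood test).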

How the data were processed

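RNA was extracted on columns and libraries were made with a TruSeq RNA v2 kit, which does not mark strand. Per the study's methods, the authors aligned reads to GRCh38 with TopHat and counted them per gene with featureCounts 1.4.6. They deposited raw counts, 1 column per library, with no normalization, beside the exon length of each gene in bases. The methods speak of gene models from UCSC, but the rows carry Ensembl identifiers, and 57754 of 58336 were matched to a symbol. The handling of reads that match several genes, and the strand setting, are not given in the sources used here. Each of the 8 lay where GENCODE places that identifier.

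Counts were tested with edgeR 4.0.16 in R 4.3.3 (TMM, default filter on low counts, quasi-likelihood test, TH588 against DMSO, no block), with Benjamini-Hochberg adjustment over the 15844 genes tested. The study itself used DESeq2. SEs were taken as |log2 fold change| over the root of the F statistic. A floor of 3 counts corresponds to between 0.0276 and 0.112 CPM, for counting error only. The alternatives changed the scaling (size factors from DESeq2, or library size alone), the test (DESeq2 1.42.0, or limma-voom with limma 3.58.1), the filter (none, or 10 counts or more in each library) and the libraries (each left out). The replicate letter as a block and the removal of a trend with gene length were also tried, alone and together, and gene counts were repeated at an adjusted p under 0.01. TMM-scaled CPM per kilobase and the coding length from GENCODE were added after the data were seen, the latter because no protein table was used here.

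Genes were named by rule: the 8 members, from each list up to 4 that rose and 4 that fell most among those called, *OGG1*, *MUTYH*, *UNG*, *SMUG1*, *RRM1*, *RRM2* and *RRM2B* whatever their values, the 3 nearest genes in pattern to each member, and genes that overlap or adjoin a member. Some genes that the rule names are not reported here. The members and lists were chosen with earlier results of these data known. Lists are described by counts and medians, with no set test.

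Replicates differed by far more than sampling noise (chi-square over its degrees of freedom 23.47 to 165.3), so each library counts as 1 replicate. Libraries with the same letter did not deviate together (correlations of -0.07, -0.08 and 0), so the letters were not taken to pair them. The procedure was tested on simulated counts, where it recovered the size and sign of known changes. Far fewer genes were changed in the simulation than were called here, and its libraries had no added shift in composition. It therefore cannot show how the scaling performs under the wide changes of these data. False calls there ran above the nominal share. A first bar on false calls was not met, and after this was seen it was replaced by a looser one and by a bar on unadjusted p-values.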

Additional observations from a re-analysis of the deposited data

How the results depend on the processing

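No log2 fold change of the 8 genes changed sign under any of the 15 alternatives, and 5 to 7 of the 8 were called (5 or 6 with 1 library left out). *NUDT5* lost its call without DMSO replicate C, *NUDT16* gained one under 2 alternatives and *NUDT18* under 7. Scaling by library size alone raised the median of all genes from 0.02 to 0.13, testing without a filter raised it to 0.14 over 25695 genes, and *NUDT1* was at -0.64 on the former scale. Over all genes, calls numbered 6805 to 7914 with 1 library left out. The fit with the replicate block called 7195 genes, sharing 7129 with the fit without it, and *NUDT1* stayed at -0.75. The count for other nucleotide-clearing enzymes went from 8 to 5 with the replicate block and to 5 at an adjusted p under 0.01, and ranged from 5 to 8 with 1 library left out, the lowest without DMSO replicate C. The cause was not tested. The block changed no other count by over 1.5 times and ended no member's call. The depth limits *NUDT18* most, at 12 to 80 counts per library.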
